A study of Acropora aff. hyacinthus sp. E JTL-2012 with 12 samples.

Results

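Of 16980 contigs measured in the tabletop coral Acropora aff. hyacinthus, 4 carried the description C2 domain-containing protein C31G5.15, and the results concern 2 of them, contig182707 and contig151589. They were chosen by their values: contig182707 had the smallest p for a pool effect that differed between corals of different origin, and contig151589 shares its description and its pattern. The other 2 contigs of that description, contig153653 and contig214925, are set beside them. All 4 passed the filter on low values, a mean value of 10 or more across libraries, which left 11903 contigs to test. A contig is a stretch of assembled transcript, so contigs of 1 description can be pieces of a single transcript or separate genes, and the table does not say which, nor whether a contig belongs to the coral or to its algae.

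The study moved fragments of 6 coral colonies so that each colony lived in both of 2 reef pools, called 300 and 400, and 12 libraries were made. There were 4 groups of 3 corals: origin 300 moved to pool 400, origin 300 kept at pool 300, origin 400 moved to pool 300, and origin 400 kept at pool 400. Corals 2, 7 and 75 were from pool 300, and corals 40, 68 and 70 from pool 400. All fragments, including those put back into their own pool, were transplanted on August 3, 2010 and sampled from the polyps around noon on August 30, 2011, with no other treatment. Below, the pool a coral came from is its home pool and the other its foreign pool. Throughout, n counts colonies. The labels give no number of fragments pooled into a library.

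C2 domains are compact folds, many of which bind membrane phospholipids when calcium is present, and they occur in proteins of membrane traffic, lipid metabolism and signalling such as synaptotagmins, ferlins, protein kinase C and cytosolic phospholipase A2. C31G5.15 is a locus name from the fission yeast Schizosaccharomyces pombe, where the gene product is a phosphatidylserine decarboxylase, an enzyme that makes phosphatidylethanolamine. The description records a sequence match to that protein, and the role of the coral contigs is not known from the table. Reef corals live with algae inside their cells, and pool 300 is known as the pool with the larger daily temperature swings.

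The deposited values are read counts divided by 1 factor per library, and the recovered totals ran from 557339 to 1643526 reads per library. The totals did not follow the foreign pool: the foreign library had more reads than the home library in corals 75, 40 and 68, and fewer in corals 2, 7 and 70. The deposited factors were 0.998 to 1.005 times factors recomputed from the reads in pool 300, and 0.641 (coral 70) to 1.29 (coral 2) times in pool 400. Results are therefore also given on rescaled values where that matters.

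With corals paired as labelled, contig182707 was higher in the foreign pool than in the home pool in all 6 corals. With origin 300 it was at 258, 114 and 159 in the foreign pool 400 in corals 2, 7 and 75, against 88.3, 36.1 and 46.3 in the home pool 300. The 3 foreign values lay above the 3 home values without overlap. With origin 400 it was at 32.2, 187 and 57.1 in the foreign pool 300 in corals 40, 68 and 70, against 7.44, 33.0 and 26.3 in the home pool 400. Here the groups overlapped, since coral 68 at home was above coral 40 in the foreign pool, although each coral was higher away from home. The foreign value was 2.92, 3.16 and 3.45 times the home value in corals 2, 7 and 75, and 4.34, 5.66 and 2.17 times in corals 40, 68 and 70.

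As group means, contig182707 averaged 177 ± 73.7 in the foreign pool and 56.9 ± 27.7 in the home pool among origin 300 corals (SD, n = 3 each). Among origin 400 corals it averaged 92.0 ± 82.9 in the foreign pool and 22.2 ± 13.3 in the home pool (SD, n = 3 each). Both foreign groups thus had higher means than both home groups, and within each condition origin 300 had the higher mean. Single corals overlapped between the foreign groups of both origins. They also overlapped between foreign origin 400 and either home group. The foreign origin 300 corals lay above all home corals, and the home origin 300 corals, the lowest at 36.1, lay above the home origin 400 corals, the highest at 33.0.

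The counts behind these values were moderate, from 9 reads in coral 40 at home to 156 in coral 2 in the foreign pool. Exact 95% Poisson intervals, which cover counting error only, did not overlap between the fragments of a coral, paired as labelled, in 6 of 6 corals. For coral 40, the shallowest case, the interval was 24.3 to 42.0 in the foreign pool and 3.40 to 14.1 at home.

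contig151589 had the same direction in each of the 6 corals. Origin 300 gave 77.8, 64.5 and 78.2 in the foreign pool 400 in corals 2, 7 and 75, against 13.03, 8.10 and 19.1 in the home pool 300, again with no overlap. Origin 400 gave 11.1, 98.7 and 27.6 in the foreign pool 300 in corals 40, 68 and 70, against 0, 11.0 and 15.2 in the home pool 400. The foreign value of coral 40 lay within the range of the home values. Coral 40 had 19 reads in the foreign pool and none at home, so its ratio is at least 4.49, taking 3 reads in that library as the floor. In the other corals the foreign value was 5.97, 7.97 and 4.09 times the home value in corals 2, 7 and 75, and 8.98 and 1.81 times in corals 68 and 70. Poisson intervals of the fragments were separate in 5 of 6 corals, the exception being coral 70.

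The mean of contig151589 was 73.5 ± 7.78 in the foreign pool and 13.4 ± 5.52 in the home pool among origin 300 corals (SD, n = 3 each). Among origin 400 corals it was 45.8 ± 46.6 in the foreign pool and 8.74 ± 7.86 in the home pool (SD, n = 3 each). The highest value in the foreign pool 300 was that of coral 68, which was also the highest of the 6 fragments in that pool for contig182707.

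**Figure D1:**
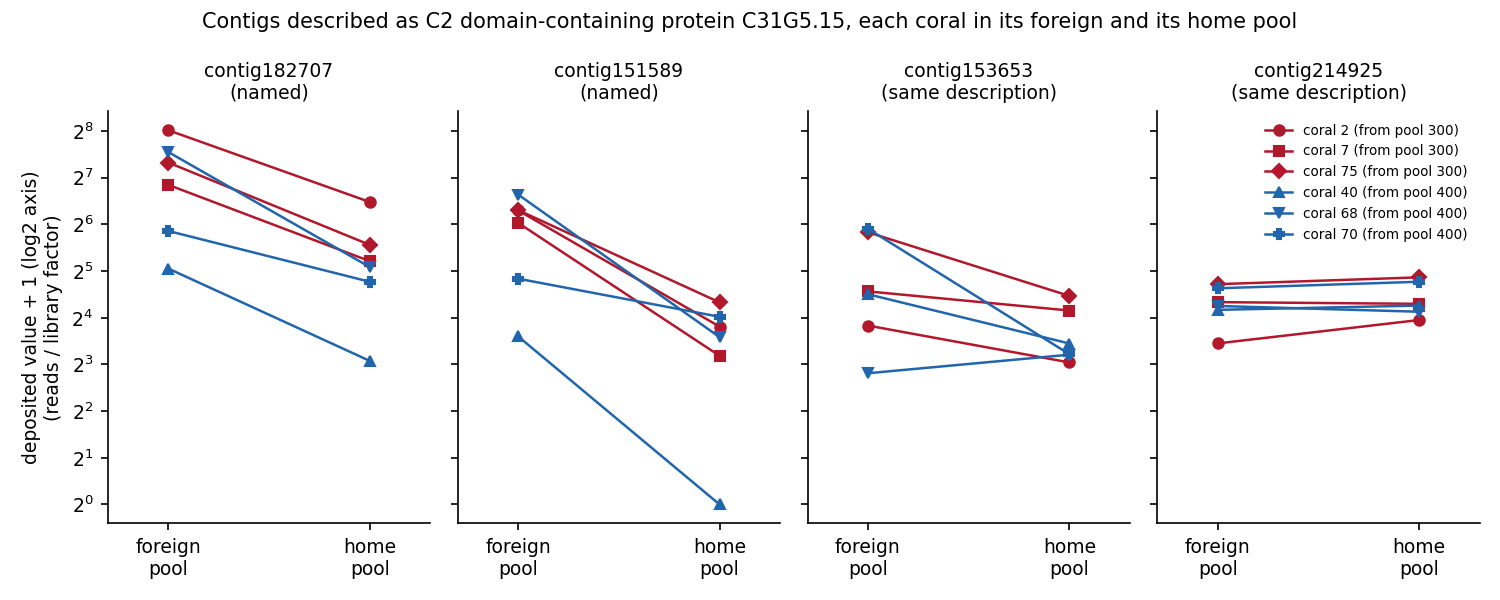
Values of the 4 contigs with the C31G5.15 description in each coral, in its foreign pool (left) and home pool (right). The vertical axis is the deposited value plus 1 on a log2 axis, lines join the fragments of 1 coral, red marks corals from pool 300 and blue those from pool 400. All 6 lines slope down to the home pool for contig182707 and contig151589, 5 of 6 do for contig153653, and those of contig214925 are nearly level.

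On the log2(value + 1) scale, which understates the change of low contigs, the foreign-minus-home difference of contig182707 averaged 1.74 ± 0.46 over corals (SD, n = 6), with single corals between 1.09 in coral 70 and 2.46 in coral 68. That of contig151589 averaged 2.46 ± 0.97 (SD, n = 6), with single corals from 0.82 in coral 70 upwards. Its value for coral 40, against 0 reads at home, is set by the pseudocount and is no measured fold, and it enters this mean and the effect of origin 400. Written as pool 300 minus pool 400, the effect of contig182707 was -1.64 for origin 300 and 1.84 for origin 400 (SE 0.29 each). That of contig151589 was -2.44 for origin 300 and 2.49 for origin 400 (SE 0.53 each). The difference between these effects was -3.49 (SE 0.41) for contig182707 and -4.93 (SE 0.75) for contig151589, which is -2 times the mean foreign-minus-home difference. These values chose the contigs, so they are a description and no test of them is given.

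Among the 11903 contigs tested, contig151589 had the largest difference between origins in either direction at a pseudocount of 1, and contig182707 the fourth largest. This contrast chose the contigs, so these ranks and the pattern counts that follow are descriptions only. The difference of contig151589 was -4.93 at a pseudocount of 1 and -3.82 at a pseudocount of 5. A higher value in the foreign pool in all 6 corals was seen in 21 contigs, or 0.176%, as deposited and in 79, or 0.664%, after rescaling, including both named contigs each time. A foreign value higher by at least 1 log2 unit in all 6 corals was seen in 1 contig as deposited, contig182707, and in 2 after rescaling, contig182707 and contig151589. In 0 contigs, 0%, did all foreign values lie above all home values within both origins at once. At an adjusted p under 0.05, 0 of 11903 contigs, 0%, were called for the difference between origins with limma, with 211 at an unadjusted p under 0.05. On recovered reads edgeR called 1 contig and had 214 at an unadjusted p under 0.05.

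**Figure D2:**
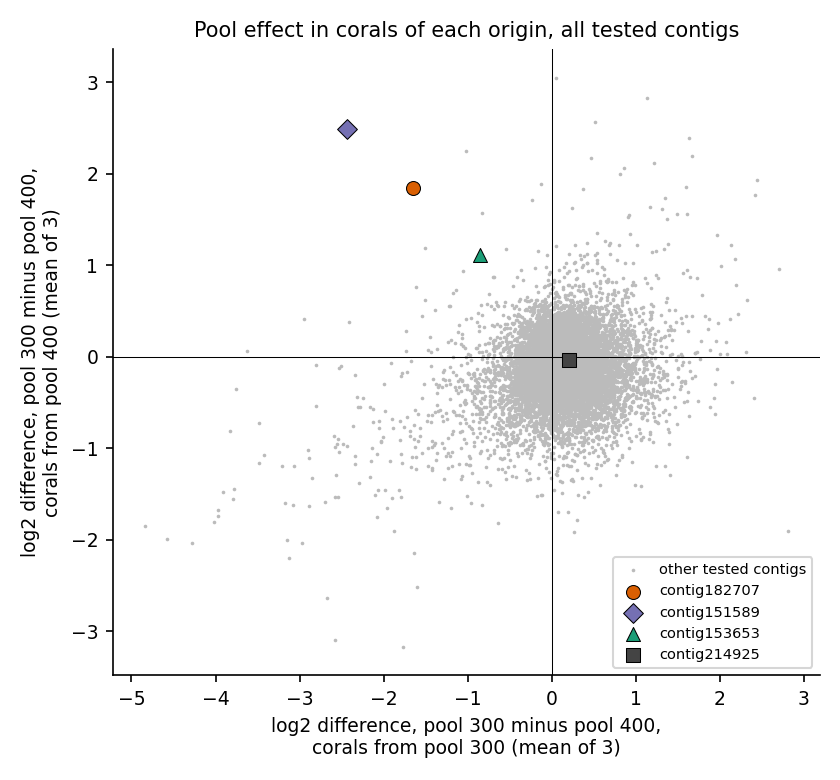
Mean pool effect, pool 300 minus pool 400 on the log2(value + 1) scale, for origin 300 (horizontal) and origin 400 (vertical) for all tested contigs (grey) and the 4 contigs of the description (coloured). contig182707, at -1.64 and 1.84, and contig151589, at -2.44 and 2.49, lie at the upper left, contig153653 lies between them and the bulk, and contig214925 lies within the bulk.

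The mean effect of the pool over both origins and the mean level of each origin were other contrasts than the one that chose the contigs. The pool effect is not free of the choice, however: contigs chosen for opposite effects in the 2 origins have effects that cancel in the mean, and its SE comes from the same residuals. No permutation over corals is given for it. The fragments in pool 300 had a mean of 74.5 ± 58.5 for contig182707 and those in pool 400 one of 99.8 ± 97.3 (SD, n = 6 each). The log2 pool effect was 0.10 with an SE of 0.21 (adjusted p = 0.9997 by limma). For contig151589 the means were 29.6 ± 34.6 among fragments in pool 300 and 41.1 ± 36.2 among those in pool 400 (SD, n = 6 each). The log2 pool effect was 0.03 with an SE of 0.37 (adjusted p = 0.9997 by limma). In this test 0 of these 2 contigs and 0.638% of all contigs tested passed.

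Between origins, with each coral as the mean of its fragments, contig182707 averaged 117 ± 50.6 for origin 300 and 57.1 ± 46.9 for origin 400 (SD, n = 3 each). The log2 difference was 1.34 with an SE of 0.51 (unadjusted p = 0.0245 and adjusted p = 0.998 by limma, exact two-sided permutation p = 0.2, smallest possible 0.1). For contig151589 the means were 43.5 ± 6.40 for origin 300 and 27.3 ± 25.2 for origin 400 (SD, n = 3 each). Its log2 difference was 1.21 with an SE of 0.70 (unadjusted p = 0.113 and adjusted p = 0.998 by limma, exact permutation p = 0.3). Without coral 40 the origin differences were 0.76 for contig182707 and 0.22 for contig151589, and without coral 68 that of contig151589 was 1.88. For origin 0 of these 2 contigs passed, against 0.0336% of all. Within the fragments living in pool 400 the origin difference of contig182707 was 3.09, and within those in pool 300 it was -0.40. For contig151589 these were 3.68 and -1.25. These values within 1 pool contain the difference that chose the contigs and were not tested.

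The 2 contigs can be compared within a library, where the library factor cancels. For each read of contig182707 there were between 0.301 and 0.565 reads of contig151589 in the foreign pool and between 0 and 0.579 in the home pool. This ratio was higher in the foreign pool in corals 2, 7, 75 and 68, and lower in coral 70, where it was 0.483 in the foreign pool and 0.579 at home. Coral 40 had 9 reads of contig182707 and 0 of contig151589 at home, too few to compare. Counts of contig151589 at home were low elsewhere too, at 8 reads in coral 68 and 9 in coral 2. The counting error of these ratios was not assessed, so their directions in single corals are a description only. The foreign-minus-home difference of contig151589 was larger than that of contig182707 in corals 2, 7, 75 and 68, by 0.21 in coral 75 to 1.21 in coral 7, and 0.27 smaller in coral 70. Contig lengths are not given in the table, so the ratio says nothing of which contig was the more abundant.

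The other 2 contigs of the description are what was left of the 4 after 2 were named for their pattern. Weaker effects in them were favoured by that choice. Their tests of the difference between origins therefore cannot show whether the pattern belongs to all sequences of that name. contig153653 was at 13.2, 22.7 and 56.0 in the foreign pool in corals 2, 7 and 75, against 7.24, 16.8 and 21.1 in the home pool. In corals 40, 68 and 70 it was at 21.7, 6.02 and 59.0 in the foreign pool, against 9.92, 8.25 and 8.31 in the home pool. It was thus higher in the foreign pool in 5 of 6 corals, the exception being coral 68. The difference between origins in its pool effect was -1.97 (SE 0.80; unadjusted p = 0.0341 and limma adjusted p = 0.9996, exact permutation p = 0.1, the smallest possible), and it did not pass. In that limma fit 0 of 11903 contigs passed. Without coral 70 the difference of contig153653 was -1.18, and without corals 40 and 68 together -3.54. For contig182707 and contig151589 it was -3.87 and -5.77 without coral 70, and -2.73 and -3.25 without corals 40 and 68.

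contig214925 was at 9.94, 19.2 and 25.3 in the foreign pool in corals 2, 7 and 75, against 14.5, 18.7 and 28.2 in the home pool. In corals 40, 68 and 70 it was at 17.0, 18.1 and 23.8 in the foreign pool, against 18.2, 16.5 and 26.3 in the home pool. The groups overlapped throughout, and the difference between origins was 0.24 (SE 0.52; limma adjusted p = 0.9996, exact permutation p = 0.2). Whether the response of contig214925 differed from that of the 2 named contigs was not tested, since these were chosen for theirs.

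Counted per read of contig214925 in the same library, a ratio chosen after the values were seen, contig182707 stood at 26, 5.95 and 6.29 in the foreign pool in corals 2, 7 and 75, against 6.10, 1.93 and 1.64 at home. Corals 40, 68 and 70 stood at 1.90, 10.3 and 2.40 in the foreign pool, against 0.409, 2 and 1 at home. The ratio was between 2.40 and 5.17 times as high in the foreign pool, and it does not depend on the library factors. It carries the counting error of contig214925, which had 6 to 38 reads per library. The ratio of 26 in coral 2 rests on 6 reads of contig214925. These ratios are a description of contigs picked by their values, with no test.

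**Figure D3:**
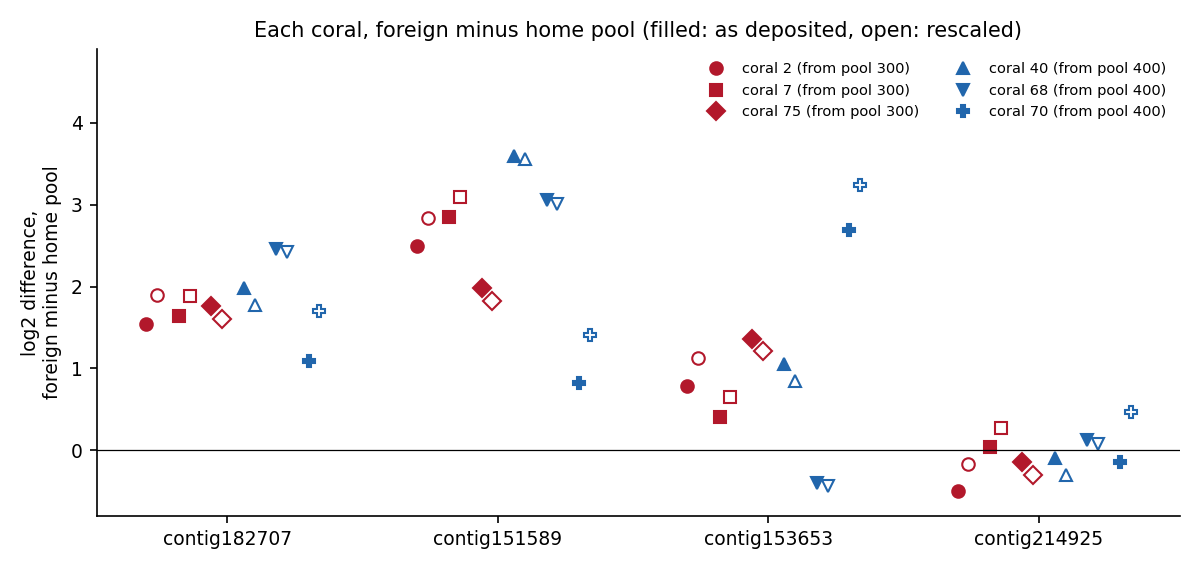
Log2 difference between foreign and home pool for each coral and each of the 4 contigs, as deposited (filled) and after median-ratio rescaling (open). Red marks corals from pool 300 and blue those from pool 400. All points of contig182707 and contig151589 lie above 0 in both scalings, with coral 70 the lowest for contig151589 and the point of coral 40 there set by the pseudocount, against 0 reads at home.

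Rescaling narrowed the spread of contig182707: its foreign-minus-home differences then ran from 1.61 to 2.42 with a mean of 1.88 ± 0.29 (SD, n = 6). Those of contig151589 were at least 1.41, with a mean of 2.62 ± 0.83 that includes coral 40 (SD, n = 6). In coral 70 rescaling raised the difference to 1.70 for contig182707 and to 1.41 for contig151589. Of the 21 contigs higher in the foreign pool in all 6 corals, 10 were so after rescaling too, the 2 named contigs among them.

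The pairing of corals 40 and 68 bears on single corals. Across all contigs, the deviations of their fragments from the group means correlated at -0.22 in coral 40 and 0.0628 in coral 68, against 0.394 to 0.688 in the other corals. Pairing coral 40 in pool 300 with coral 68 in pool 400 gave 0.169, and the reverse gave 0.311. With the pool 400 fragments of the 2 corals exchanged, the foreign-minus-home difference of contig182707 was -0.03 in coral 40 and 4.48 in coral 68, and that of contig151589 was 0.02 in coral 40, while coral 68 was then set against 0 reads. The group means and the means of 1.74 and 2.46 over corals are the same under either pairing, since both corals came from pool 400. Whether the labels of these fragments were exchanged was not tested.

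Marker genes of other cell types were followed beside the pattern, since a bulk sample cannot tell more cells of a type from more RNA per cell. All 6 matched cnidocyte contigs, named for the stinging cells of cnidarians, had reads in some library, 2 of them reached the mean of 10, and 2 were at 0 in at least 1 library. Their summed value ran from 67.9 to 81.1 in the foreign pool and from 48.3 to 57.9 in the home pool for origin 300. For origin 400 it ran from 52.3 to 111 in the foreign pool and from 53.7 to 150.3 in the home pool. It was higher in the foreign pool in 5 of 6 corals, by 0.23 to 0.66 on the log2 scale, and the difference was -1.504 in coral 70. The summed values of muscle, sperm and cilia, egg and germ line, and photosynthesis descriptions were higher in the foreign pool in 1, 3, 2 and 1 of 6 corals. The muscle sum lay between -0.31 and 0.47 foreign minus home, and the photosynthesis sum between -0.40 and 0.36. All these sums are as deposited and were not recomputed on rescaled values. Rescaling divided the pool 400 library by 1.60 in coral 70 and by 0.797 in coral 2, so small differences can change sign. With limma, 0 of the 2, 24, 69, 21 and 8 tested contigs of the cnidocyte, muscle, sperm and cilia, egg, and photosynthesis lists were called in any of the 3 tests, and with edgeR likewise 0, where 0.638%, 0.0336% and 0% of all contigs were called by limma for pool, origin and the difference between origins. The egg list had 1 call for pool in limma at a pseudocount of 5, with no minimum mean, and with corals 40 and 68 exchanged. Most photosynthesis matches were descriptions ending in chloroplastic, such as Glutathione synthetase and Allene oxide synthase. The 29 kDa ribonucleoprotein B, chloroplastic (contig151231), alone ran from 326 to 571, where the whole sum ran from 507 to 895. The sum is thus no measure of photosynthesis or of the algae. The part of the listed cell types in the values of the 2 contigs was not tested.

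Other proteins with C2 domains were described from a word list over the contig descriptions, which matched 87 contigs, 64 of them tested. For the mean pool effect 2 of 64 fell in pool 300 and 0 rose, where 0.63% of all contigs fell. Synaptotagmin-15 (contig120807), of a family of vesicle proteins, fell by 2.91 (SE 0.35, limma adjusted p = 0.00392). Its effects were -4.02 for origin 300 and -1.81 for origin 400. Its lowest value was 0.623, so these sizes depend on the pseudocount. The mean pool effect was -2.27 at a pseudocount of 5 and -3.07 at 0.5. Cytosolic phospholipase A2 (contig172456), which frees fatty acids from membrane phospholipids, fell by 1.38 (SE 0.24, limma adjusted p = 0.0327), with effects of -1.66 for origin 300 and -1.10 for origin 400. Synaptotagmin-15 passed in 16 of 17 alternative settings, the exception being corals 40 and 68 left out (limma adjusted p = 0.137). Cytosolic phospholipase A2 passed in 9 of 17, with an adjusted p of 0.00552 to 0.203 over the settings. It did not pass with rescaling (limma adjusted p = 0.0595), quantile normalization (limma, 0.0544) or edgeR (0.0570). With rescaling and the exchange of corals 40 and 68 together it did (limma, 0.037).

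For the difference between origins, the median of the C2 list was 0.33 on the log2 scale and that of all contigs 0.20. The effect was positive in 73.4% of the list and in 68.3% of all contigs. The 2 named contigs are members and lie on the negative side. After them, the members of smallest p were Synaptotagmin-15 at -2.21 (SE 0.69) and Synaptotagmin-C (contig169670) at 1.36 (SE 0.46), with a limma adjusted p of 0.9996 each. The summed value of the list was higher in the foreign pool in 2 of 6 corals as deposited, and was not recomputed on rescaled values. For origin 0 of 64 members passed with limma or edgeR, with 3 at an unadjusted p under 0.05 by limma, where 0.0336% of all contigs passed and 2.64% had an unadjusted p under 0.05.

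The yeast namesake belongs to phospholipid synthesis, so a list of phosphatidylserine and phospholipid genes was followed as well, with 50 tested contigs. Cytosolic phospholipase A2, which this list shares, was the 1 member of 50 that fell in pool 300, where 0.63% of all contigs fell. That call was lost with rescaling alone, quantile normalization or edgeR. Of the 50, 0 passed for origin or for the difference between origins with limma or edgeR, with 1 and 0 at an unadjusted p under 0.05 by limma, and 2.64% and 1.77% of all contigs were under it. The smallest p for that difference were those of Putative phospholipase B-like 2 (contig152844), at 1.16 (SE 0.53), and Patatin-like phospholipase domain-containing protein 2 (contig195785), a fat-droplet lipase, at -0.70 (SE 0.37). Next came Phospholipid scramblase 1 (contig70503), a membrane protein named for moving lipids between the leaflets, at 0.81 (SE 0.45), and Calcium-independent phospholipase A2-gamma (contig150480) at 1.44 (SE 0.82). The limma adjusted p of all 4 was 0.9996. The median of the list was 0.14 as deposited, against 0.20 for all contigs, which became -0.06 after rescaling.

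Of 78 tested calcium-binding proteins, 0 passed in any of the 3 tests with limma or edgeR, with 6, 1 and 0 at an unadjusted p under 0.05 by limma for pool, origin and the difference between origins. Over all contigs 0.638%, 0.0336% and 0% passed by limma in these tests, and 4.47%, 2.64% and 1.77% had an unadjusted p under 0.05. Calumenin-B (contig146154), a calcium-binding protein of the secretory pathway, had a difference of 1.08 (SE 0.51). Calmodulin (contig175637), the main calcium sensor of cells, had 0.65 (SE 0.37), Calpain-7-like protein (contig173715) 0.91 (SE 0.57) and Calcium/calmodulin-dependent protein kinase type 1 (contig149463) 1.26 (SE 0.80). The median of the list was 0.26 as deposited, and list medians were not recomputed after rescaling.

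Among the 11902 other tested contigs, contig151589 was the one most like contig182707 across the 12 libraries, with Pearson r = 0.93 and Spearman rho = 0.85 on log2(value + 1). After the mean of each coral was subtracted r was 0.98, again the highest. contig153653 had r = 0.16, rank 3949, and contig214925 r = -0.30, rank 7970. With the mean of each coral subtracted, contig153653 had r = 0.57, rank 338, and contig214925 r = -0.40, rank 9946. The median r over all contigs was -0.10, and 16 contigs reached 0.8. These correlations are descriptions: the 12 libraries hold 6 corals, and contigs of a library share its factor. contig151589 was also taken for sharing the pattern of contig182707, so its top rank is not independent of the choice.

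**Figure D4:**
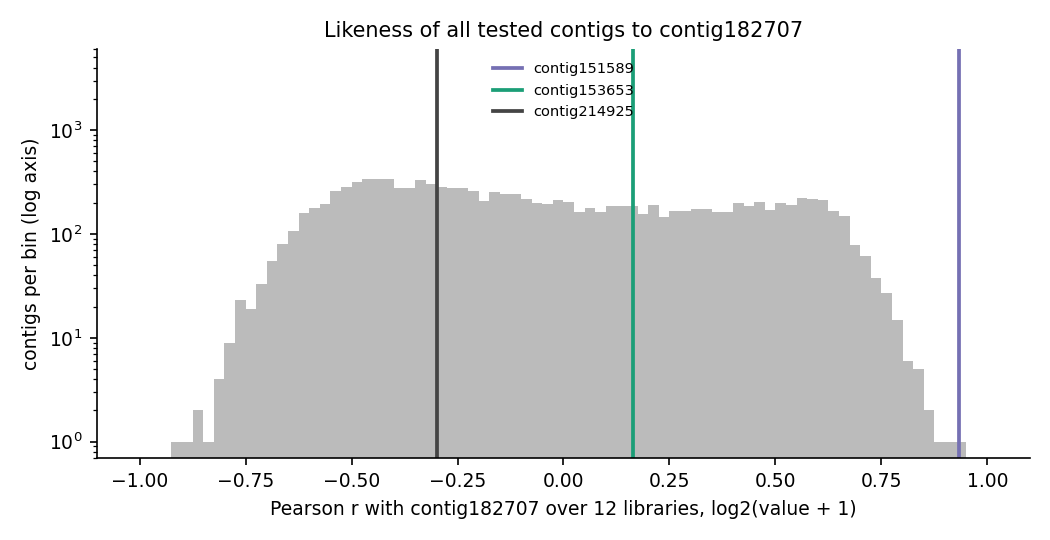
Pearson r of every tested contig with contig182707 over the 12 libraries, as a histogram with a log axis for the number of contigs. Vertical lines mark the other contigs of the description: contig151589 at 0.93, contig153653 at 0.16 and contig214925 at -0.30.

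The next most similar contigs with an informative description moved less between pools than contig182707, to differing degrees. E3 ubiquitin-protein ligase DZIP3 (contig217130), which marks proteins with ubiquitin, had r = 0.88, with pool effects of -0.23 for origin 300 and 0.15 for origin 400. Carbonic anhydrase (contig176290), which interconverts CO2 and bicarbonate, had r = 0.87 with effects of -0.37 and 0.13. Ubiquitin-40S ribosomal protein S27a (contig164880), a fusion of ubiquitin and a ribosomal protein, and MAGUK p55 subfamily member 5-A (contig159611), a scaffold of cell junctions, had r = 0.84 each. The effects for origin 300 and origin 400 were -0.08 and 0.40 for contig164880, and -0.83 and 0.46 for contig159611. Protein transport protein SFT2 (contig3555), of Golgi traffic, had r = 0.82, and Glycerol-3-phosphate acyltransferase 1, mitochondrial (contig78291), which starts glycerolipid synthesis, had r = 0.81.

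Dickkopf-3 related protein (contig158043), of a family of secreted proteins known for acting on Wnt signalling, had r = 0.86 and the largest effects of these, -1.05 for origin 300 and 0.94 for origin 400. It was at 84.4, 26.2 and 23.2 in the foreign pool in corals 2, 7 and 75, against 34.8, 9.34 and 16.1 at home. In corals 40, 68 and 70 it was at 17.0, 71.0 and 14.3 in the foreign pool, against 5.78, 16.5 and 22.9 at home, so coral 70 went the other way.

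Among contigs with an informative description, the most similar to contig151589 after contig182707 were DZIP3 (r = 0.86), Extensin-1 (contig76528), named for a plant cell wall protein (r = 0.81), and the same Carbonic anhydrase contig (r = 0.80). With each coral's mean subtracted, and among the same contigs, Proteasome subunit alpha type-5 (contig107727), of the protein-degrading complex, reached r = 0.89 with contig182707, SFT2 0.88 and DZIP3 0.87. The most opposite of them were Malate synthase (contig9108), of the glyoxylate cycle, at r = -0.92, and Glutaminyl-peptide cyclotransferase (contig18008), which modifies the ends of secreted peptides, at -0.88. Eukaryotic translation initiation factor 5B (contig181163) followed at -0.85 and Prothrombin (contig146537), named for the blood clotting protease, at -0.83. On rescaled values the r of contig151589 was 0.92, and those of Malate synthase and Prothrombin were -0.80 and -0.65.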

How the data were processed

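RNA libraries from 12 coral fragments were made with TruSeq kits, 12 to a lane, per the labels' protocols. The submitters' processing notes name BWA and DESeq, with no role or version. The deposited values are a signal, reads per contig divided by 1 factor per library, as the values themselves show: at a tolerance of 0.01 reads all but 1 value were whole multiples of 1 read, and that one was read as 0. Columns of pool 400 are marked as adjusted per the file headers, without saying how. A further 9 columns (group means, SDs and a ratio) were not used.

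Log2(value + 1) of each contig whose mean reached 10 was fitted in limma 3.58.1 (R 4.3.3, variance trend, Benjamini-Hochberg over all 11903, threshold 0.05). The fit held the coral as a block, because both fragments are 1 animal, with the pool effect of each origin. Origin was tested on coral means. Exact permutation tests over corals were added, except for the pool effect of contigs chosen for opposite effects. edgeR 4.0.16 (quasi-likelihood) on recovered reads, other pseudocounts, minimum means and scalings, a fit without the block, each coral left out, and corals 40 and 68 exchanged or left out were the alternatives; rescaling together with the exchange was chosen after seeing the data. The fits were tested on simulated data.

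Contigs, lists and tests were chosen with earlier results of these data known. The planned test of contig151589 for the difference between origins, and within single pools, was not used: 4 contigs carry the description, so its pattern may have entered the choice. Other contigs were named, leaving out those whose description is missing, uncharacterized, hypothetical or unknown, by Pearson r with the 2 contigs (8 highest, 4 lowest, 4 highest after centring on corals, and 4 highest for contig151589) and, in each list, by up to 4 smallest p for the difference between origins and by any call. Lists were word patterns, so they can hold unrelated proteins. P-values measure the spread between these colonies, with 1 library per fragment.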

Additional observations from a re-analysis of the deposited data

Results flagged for a closer look

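In both named contigs the pool effect had opposite signs in every coral of the 2 origins, with a difference between origins of -3.49 for contig182707 and -4.93 for contig151589. The contigs were chosen for this, so no test of it is given as support.

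On the deposited scale, which is not logged, the fragment of coral 68 in pool 300 stood far from the others in both contigs. For contig182707 it was at 187, where the next highest of the 6 fragments in pool 300 was 88.3 and the next of the 6 from origin 400 was 57.1. For contig151589 it was at 98.7, where the next was 27.6 in either grouping. For contig153653 the fragment of coral 70 in pool 300, at 59.0, stood apart from the next at 21.7, and that of coral 75 in pool 400, at 56.0, from the next at 22.7. Gaps were judged by Dixon's ratio in 20 groupings of 6. Groupings of fragments mixed foreign and home fragments, so the usual rate of 1 in 20 marked by chance does not hold for them. Gaps between fragments were not judged on a log scale.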

How the results depend on the processing

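Neither named contig passed for pool or origin in any alternative, with limma or edgeR adjusted p of at least 0.735 for contig182707 and at least 0.583 for contig151589. For pool the choice of contigs with opposite effects in the 2 origins favours this outcome, so it is no evidence about the pool. The difference between origins kept its sign in every alternative. It was -2.73 for contig182707 and -3.25 for contig151589 without corals 40 and 68, and -3.82 for contig151589 with a pseudocount of 5. With 1 coral left out it ran from -3.87 to -3.18 and from -5.77 to -4.37. The near-zero pool effect changed sign: contig182707 was at -0.28 without corals 40 and 68 and ran from -0.0558 to 0.29 with 1 coral left out. contig151589 was at -0.22 with a pseudocount of 5, -0.0862 with edgeR, -0.81 without corals 40 and 68, and ran from -0.25 to 0.44 with 1 coral left out. With 1 coral left out, origin ran from 0.76 to 1.88 for contig182707 and from 0.22 to 1.88 for contig151589, which was 0.66 with edgeR. Origin, not tested within pools, was -0.40 and 3.09 within pools 300 and 400 for contig182707, and -1.25 and 3.68 for contig151589. Without the replicate block the difference of -3.49 had the same value with an SE of 0.89 in place of 0.41.

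Calls over all contigs depended more on the setting. For the mean pool effect 76 were called, 39 with rescaling (39 also with the exchange added), 49 with edgeR, 52 without the replicate block, 8 without corals 40 and 68, and 54 to 73 with 1 coral left out. For origin 4 were called, 2 at a minimum mean of 20, 1 with rescaling, with or without the exchange, 1 within pool 300, 0 with quantile normalization (399 at an unadjusted p under 0.05) or without corals 40 and 68 (269), and 2 to 12 with 1 coral left out. For the difference between origins 0 were called, 2 with rescaling, 2 with quantile normalization, 1 with edgeR, and 0 to 2 with 1 coral left out, the 2 being those without coral 70. The contigs called were contig182707 and contig151589, and contig182707 with edgeR; since this contrast chose them, these counts describe the settings and are no test of the contigs. Exchanging corals 40 and 68 ended them after rescaling, at 0. The median of this difference over all contigs was 0.20 as deposited and -0.06 after rescaling, so effects of contigs near it change sign with scaling.

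For contig153653 the pool effect was -0.26 without coral 70 and lay between -0.26 and 0.51 with 1 coral left out, and origin was -0.25 without corals 40 and 68 and -0.52 within pool 300. For contig214925 origin was 0.0306 with rescaling, with or without the exchange, 0.14 with quantile normalization, 0.0712 with edgeR, 0.0211 within pool 300, and between -0.36 and 0.19 with 1 coral left out. Its difference between origins was -0.0162 with rescaling, with or without the exchange, and -0.13 with quantile normalization. Counts per library limit the precision of single values, at 0 to 156 reads for the 2 named contigs, 5 to 62 for contig153653 and 6 to 38 for contig214925.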

Other observations

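Besides the 2 named contigs, 19 contigs were higher in the foreign pool in all 6 corals, chosen here after their values were seen. E3 ubiquitin-protein ligase MARCH5 (contig181887), a ligase of mitochondria, came next in size, with a mean foreign-minus-home difference of 0.995 and single corals between 0.25 and 3.23. Toll-like receptor 6 (contig191106), named for receptors of microbial molecules, had a mean of 0.43, and Properdin (contig77990), named for a protein of the complement system, 0.26. The pattern held in 6 of 6 corals after rescaling for MARCH5, in 4 for Toll-like receptor 6 and in 5 for Properdin.

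The opposite pattern, lower in the foreign pool in all 6 corals, was seen in 78 contigs as deposited and in 94 after rescaling, with 25 in both. Probable ribonuclease ZC3H12C (contig55309), of a family that degrades messenger RNAs, had the lowest mean of these, at -1.18. 40S ribosomal protein S8 (contig4366) was at -0.98 and Profilin-2 (contig19975), an actin-binding protein, at -0.87.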
